A study of Mus musculus with 4 samples.

Results

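The genes described here are 8 mouse glycosyltransferase genes: St8sia1, Galnt2, St3gal1, St6gal1, St8sia4, St8sia6, Mgat5 and Gcnt1. Their chromatin was followed in ATAC-seq peak lists, which record where a transposase found DNA open. A peak was taken as belonging to a gene when its midpoint lay inside the mm10 span of the gene or within 50 kb of either end. The 4 lists were DP 1 and DP 2, from CD4+CD8+ double positive (DP) thymocytes, and DN 1 and DN 2, from CD4-CD8- double negative (DN) thymocytes sorted as CD25+CD44-/+. All 4 came from the thymus of C57BL/6J mice that were wild type and 5 to 7 weeks old. The rule took 84 of 39709 peaks in DP 1, 91 of 70376 in DP 2, 49 of 38801 in DN 1 and 32 of 33123 in DN 2. Peaks of the 4 lists that shared at least 1 bp were joined into regions, which gave 119 regions near the 8 genes of 107621 in the genome. The genes were chosen by their DP and DN peaks in these same lists, so all differences between the stages below are a description and carry no test.

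These enzymes build the sugar chains of cell surface proteins and lipids in the Golgi. Sialyltransferases end a chain with sialic acid, GalNAc transferases start O-linked chains on serine or threonine, and branching enzymes such as Gcnt1 and Mgat5 open new arms on O-linked and N-linked chains. In the thymus, surface glycans are known to change with maturation: cortical thymocytes bind the lectin peanut agglutinin, which reads O-glycans that lack a sialic acid cap, and mature thymocytes bind it less. Branched N-glycans are also known to bind galectins and to raise the threshold of T cell receptor signalling.

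A region is called DP-only where DP 1 and DP 2 held it and no DN list did, DN-only where DN 1 and DN 2 alone held it, and shared where it was in all 4. Distances of a region from a gene, span or start are measured from its midpoint. Read numbers are not part of the lists and their depth is unknown, so closed DNA and thin coverage both leave a site without a peak. Nor can a site that is open in few cells be told apart from a site that is weakly open in all of them. The DP 2 list stands apart by its length. Counts of DP-only and DN-only regions near the 8 genes are given below without it too. So is the number of other glycan genes with more DP-only regions. Not every other count is repeated in this way. With 2 lists per group and no statement of separate animals, the spread may be technical. Cd4, Cd8a, Cd8b1, Rag1 and Rag2 were taken as DP markers, with peaks counted in the spans and 10 kb around them. There the lists held 31 and 34 peaks in DP 1 and DP 2, against 3 and 3 in DN 1 and DN 2. Rag1 and Rag2 do not define the DP stage, which is named by CD4 and CD8. Of these sums, Rag1 held 4 and 5 against 1 and 1, and Rag2 4 and 8 against 1 and 1. Whether thin coverage lowered the DN counts at Rag1 and Rag2 was not tested. At the T lineage genes Bcl11b, Cd3d, Cd3e, Cd3g and Tcf7, used at both stages, the sums were 34 and 35 against 10 and 3. More peaks in DP lists were thus not limited to the genes taken as DP markers. All sums of markers add the counts of single genes, so a peak near neighbouring genes can count at each of them. At the CD25+ DN genes the sums were 12 and 12 against 12 and 4. Of these, Il2ra, which encodes CD25, held 9 and 9 against 7 and 2, Kit 2 and 3 against 3 and 1, and Il7r 1 and 0 against 2 and 1. At the 4 myeloid genes the sums were 3 and 3 in DP lists and 2 and 1 in DN lists, with Csf1r and Lyz2 at 0 in every list. At the 3 erythroid genes they were 4 and 4 against 3 and 1, and at the 3 stromal genes 4 and 5 against 2 and 0. Of the B cell genes, Ebf1 held 7 and 8 against 8 and 3, Cd79a 2 and 6 against 2 and 1, and Pax5 2 and 4 against 1 and 1, while Ms4a1 was at 0 in every list. Gata1, Hba-a1 and Epcam were at 0 in every list, and the part of other cells in the results was not tested.

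The promoters of 6 of the 8 genes, 10 starts in all, were listed by RefSeq on GRCm38.p6, the same assembly as mm10. Each listed promoter runs from 250 bases before a start to 50 bases after it. Those shown here come from genes whose peaks at the start differed between lists, St8sia1, both early starts of St6gal1, St8sia6 and the middle start of Gcnt1, together with St8sia4, which all 4 lists held. Capitals mark matches, on either strand, to 9 short motifs known from the factors that bind them. Factors of the ETS family, common in lymphocytes, are known to bind the motif CCGGAAG as well as the shorter motif written as GGAAGT, which can overlap it. RUNX factors, known regulators of thymocyte development, bind the motif TGTGGT in many promoters. E proteins, which are needed in early thymocytes, bind an E-box of the form CAGCTG, and the other E-box searched for was written as CAGGTG in the same family. The TCF/LEF family of Wnt signalling and thymocyte development has the motif TCAAAG in its usual short form. The family of Gata3 was searched for through the motif AGATAA in either direction. The family of Myb, which is active in dividing thymocytes, was covered by the motif AACGG and by no longer form. The widely expressed SP/KLF family, finally, was covered by the motif GGGCGG in these promoters.
St8sia1, chr6:142964403-142964702, minus strand: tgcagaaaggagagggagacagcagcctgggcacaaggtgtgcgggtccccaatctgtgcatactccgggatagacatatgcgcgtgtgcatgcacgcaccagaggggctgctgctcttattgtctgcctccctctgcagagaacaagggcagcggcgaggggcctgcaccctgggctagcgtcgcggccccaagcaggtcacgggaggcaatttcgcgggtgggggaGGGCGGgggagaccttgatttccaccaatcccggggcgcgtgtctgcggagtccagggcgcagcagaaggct
St6gal1 start 1, chr16:23224490-23224789, plus strand: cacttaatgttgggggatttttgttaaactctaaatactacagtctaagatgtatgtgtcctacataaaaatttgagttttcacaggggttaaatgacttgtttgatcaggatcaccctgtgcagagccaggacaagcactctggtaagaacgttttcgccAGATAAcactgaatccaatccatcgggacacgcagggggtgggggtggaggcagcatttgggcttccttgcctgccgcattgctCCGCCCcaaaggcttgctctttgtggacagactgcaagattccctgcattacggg
St6gal1 start 2, chr16:23225771-23226070, plus strand: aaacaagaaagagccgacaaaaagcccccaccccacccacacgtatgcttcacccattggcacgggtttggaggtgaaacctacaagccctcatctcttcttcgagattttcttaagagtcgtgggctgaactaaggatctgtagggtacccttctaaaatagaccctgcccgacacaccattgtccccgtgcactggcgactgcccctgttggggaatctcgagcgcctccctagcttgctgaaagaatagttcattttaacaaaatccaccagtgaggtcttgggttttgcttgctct
St8sia4, chr1:95667545-95667844, minus strand: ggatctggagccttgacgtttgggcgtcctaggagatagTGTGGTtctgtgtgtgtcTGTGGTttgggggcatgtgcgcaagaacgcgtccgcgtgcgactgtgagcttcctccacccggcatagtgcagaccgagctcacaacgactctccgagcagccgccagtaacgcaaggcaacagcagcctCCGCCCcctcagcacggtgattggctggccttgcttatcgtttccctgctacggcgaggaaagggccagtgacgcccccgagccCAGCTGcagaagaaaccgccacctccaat
St8sia6, chr2:13793471-13793770, minus strand: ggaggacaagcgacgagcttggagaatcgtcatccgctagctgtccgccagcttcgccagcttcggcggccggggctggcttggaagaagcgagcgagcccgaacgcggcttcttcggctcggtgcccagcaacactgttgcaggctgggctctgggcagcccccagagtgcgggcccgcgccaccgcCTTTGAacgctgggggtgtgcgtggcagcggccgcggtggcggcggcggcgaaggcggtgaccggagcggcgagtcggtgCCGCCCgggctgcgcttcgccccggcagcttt
Gcnt1 start 2, chr19:17356618-17356917, minus strand: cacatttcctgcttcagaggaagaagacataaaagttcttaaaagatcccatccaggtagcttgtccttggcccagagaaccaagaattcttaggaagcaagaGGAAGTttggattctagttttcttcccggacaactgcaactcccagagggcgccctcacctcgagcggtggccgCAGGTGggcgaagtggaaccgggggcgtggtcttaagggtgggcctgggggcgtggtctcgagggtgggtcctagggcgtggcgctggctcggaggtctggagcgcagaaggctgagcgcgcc

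Peaks over these promoters fell into several patterns. St8sia4 and Mgat5 had a peak over the promoter in all 4 lists, as did 19.5% of the 21262 listed promoters of protein-coding genes. At St8sia1 and at start 2 of St6gal1 both DP lists and neither DN list had a peak in the 300 bases, a pattern held by 9.92% of all promoters. At start 2 of Gcnt1 the opposite held, with no peak in DP 1 or DP 2 and a peak in DN 1 and DN 2, a pattern of 0.503% of all promoters. St8sia6 had a peak there in DP 1, DN 1 and DN 2. Start 1 of St6gal1 and start 3 of Gcnt1 were met by a DN 1 peak alone. Start 3 of St6gal1 and start 1 of Gcnt1 were met by none, as were 50.4% of all promoters.

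The merged regions hide part of this. The region at the St8sia1 start (chromosome 6, 142963901 to 142965500) counted as shared, since all 4 lists held some of it. Within it, DP 1 had peaks at 142964101 to 142964450, 142964251 to 142964650 and 142964651 to 142965450. DP 2 had peaks at 142963901 to 142964450, 142964301 to 142964700 and 142964901 to 142965500. DN 1 had peaks only at 142963951 to 142964300 and 142964951 to 142965500, on either side of the promoter, and DN 2 only at 142964951 to 142965450, upstream of it. At Gcnt1 start 2 (chromosome 19) DP 1 had no peak and the DP 2 peak lay downstream of the start, at 17356151 to 17356450. The DN 1 peak ran over the start, at 17356301 to 17356950. DN 2 had a peak over the start at 17356401 to 17356800 and another at 17356051 to 17356350.

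**Figure D1:**
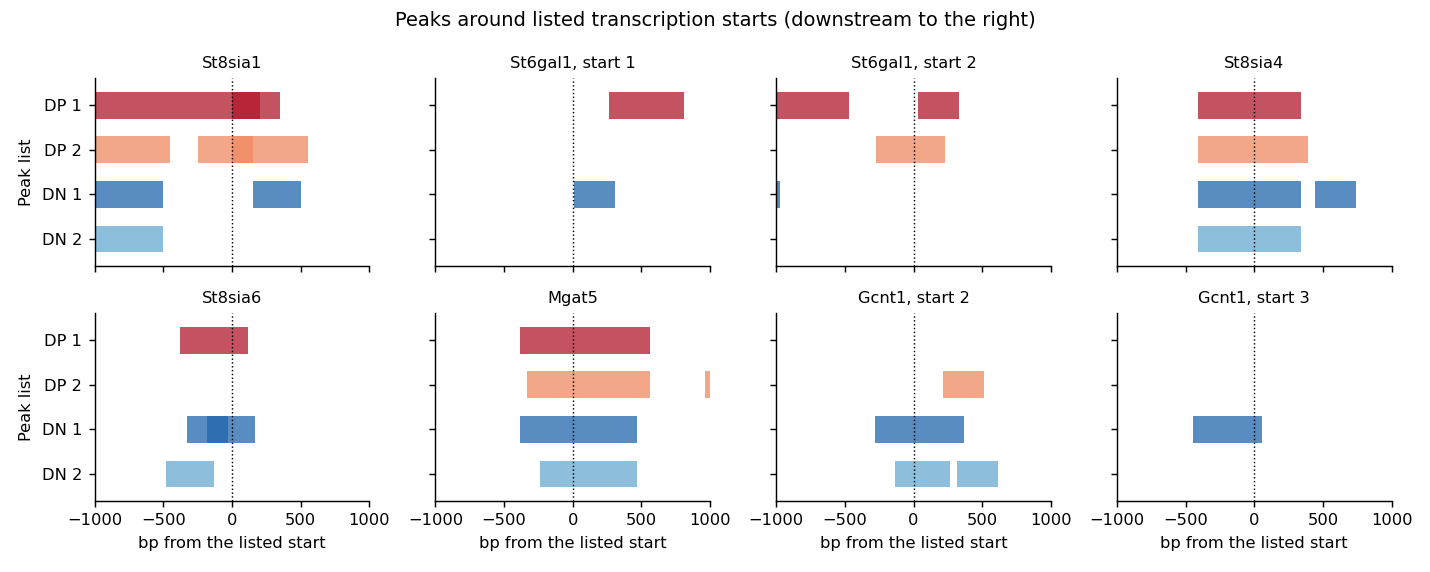
Peaks of each list (rows, DP above DN) around 8 of the 10 listed starts, by distance from the start in bp, with downstream to the right and darker parts where peaks of a list overlap. St8sia4 and Mgat5 carry a peak over the start in all 4 lists, while Gcnt1 start 2 has a peak over the start only in DN 1 and DN 2.

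In base composition the promoters ranged widely. St8sia6 had 72.0% G and C with 39 CpG in 300 bases, while start 1 of Gcnt1, met by no peak, had 40.7% with 2 CpG. The medians over all 21262 promoters were 56.3% and 13. The SP/KLF motif stood in 5 of the 10 promoters, against 46.2% of all promoters. St8sia4 held 2 RUNX motifs, against 15.0% of all promoters with at least 1, and an E-box CAGCTG, which 15.6% held. GGAAGT stood in 3 of the 10 (24.8% of all), CAGGTG in 2 (19.7%), TCAAAG in 1 (14.4%) and AGATAA in 1 (9.65%). CCGGAAG and AACGG stood in 0 of 10, against 11.6% and 19.1% of all. Start 2 of St6gal1 held none of the 9 motifs. These are matches of letters in a window and say nothing of binding.

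Around the 8 genes, 29 of the 119 regions were DP-only, 0 were DN-only and 10 were shared. Over the genome 7.44% of regions were DP-only, 2.51% DN-only and 7.39% shared. A further 8 regions near the genes were held by both DN lists and 1 DP list (1.47% over the genome) and 6 by both DP lists and 1 DN list (5.77%). The remaining regions were held by 1 DP and 1 DN list (12, against 3.61% over the genome) or by a single list (54 of 119, against 71.8%). Since the genes were chosen with these classes in view, nothing is read from the DP-only count. Among regions that were DP-only or DN-only, 74.8% were DP-only over the genome. The genes fell into separate kinds. St8sia1, Galnt2, St6gal1, Mgat5 and St3gal1 held the 29 DP-only regions, with 10, 7, 5, 5 and 2. St8sia4, St8sia6 and Gcnt1 held 0 DP-only regions and 0 DN-only ones, as did 47.5% of all genes, and 7 of the 8 regions of both DN lists and 1 DP list were theirs.

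More DP-only than DN-only regions were found at 5 of the 8 genes, against 43.0% of all 21883 protein-coding genes and 44.3% of the 5235 genes whose windows are at least as long as the shortest of the 8. The median number of DP-only regions was 3.5 over the 8 genes and 0 over all genes. At least 10 DP-only regions, the number at St8sia1, were found at 10 genes or 0.0457% of all. At least 7, the number at Galnt2, were found at 0.462%, at least 5, the number at St6gal1 and Mgat5, at 2.63%, and at least 2, the number at St3gal1, at 24.7%. These shares were not matched for window length, whose median was 225 kb over the 8 genes and 117 kb over all genes. By nearest gene only, the DP-only minus DN-only count of St8sia1 was 8 in place of 10. Leaving out a list lets the other list of its stage stand alone, which raised the genome-wide numbers of DP-only, DN-only and shared regions. The DP-only count near the 8 genes was then 51 without DP 1 and 45 without DP 2, where the genome had 45.8% and 26.9% DP-only regions. The DN-only count of 0 became 5 without DP 1, 3 without DP 2, 7 without DN 1 and 11 without DN 2, where the genome had 3.23, 5.37, 19.6 and 18.8% DN-only regions.

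**Figure D2:**
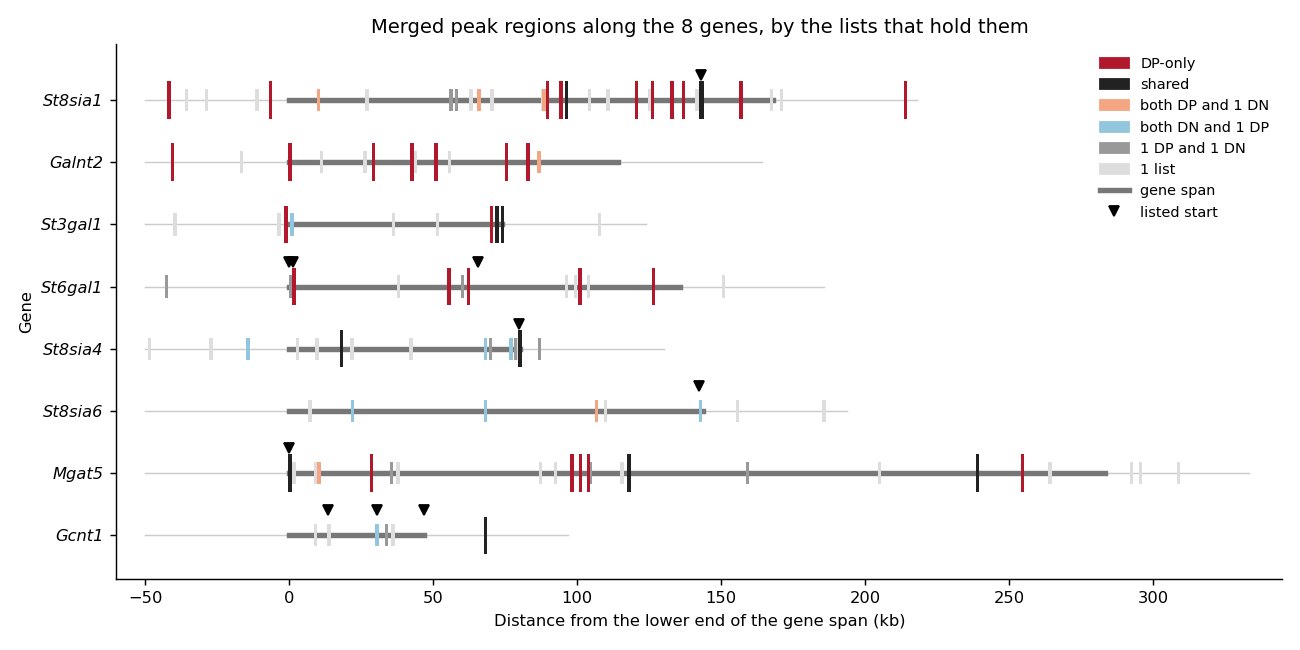
Merged regions along each of the 8 genes, by distance in kb from the lower end of the gene span in the direction of rising coordinates, with colours for the lists that hold a region and triangles for listed starts. Region marks are drawn at least 1.2 kb wide. DP-only regions line the spans of St8sia1, Galnt2, St6gal1 and Mgat5, and St8sia4, St8sia6 and Gcnt1 have none.

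Counted as single peaks, the 8 windows together held 84 peaks in DP 1 and 91 in DP 2, against 49 in DN 1 and 32 in DN 2, so the stages did not overlap. Per 10000 peaks of a list this was 21.2 in DP 1 and 12.9 in DP 2, against 12.6 in DN 1 and 9.66 in DN 2. On that scale DP 2 and DN 1 lay close together. The difference of DP minus DN means was 5.90 per 10000 peaks, and it was 1.79 without DP 1 and 10.01 without DP 2. The peaks covered 38200 and 42050 bp in DP 1 and DP 2, against 22250 and 13400 bp in DN 1 and DN 2. Peaks of a list can overlap, so counts of peaks are not counts of separate sites. The peaks fell in 70 and 77 regions in DP 1 and DP 2, against 43 and 28 in DN 1 and DN 2. Both DP lists held more peaks than both DN lists at St8sia1, Galnt2, St6gal1 and Mgat5, an order found at 41.8% of all genes, and at 29.6% per 10000 peaks. The opposite order was found at St8sia4, against 3.61% of all genes, and 16.1% per 10000 peaks. Per 10000 peaks the DN lists also lay above the DP lists at Gcnt1, while at St3gal1 and St8sia6 the stages overlapped on either scale.

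**Figure D3:**
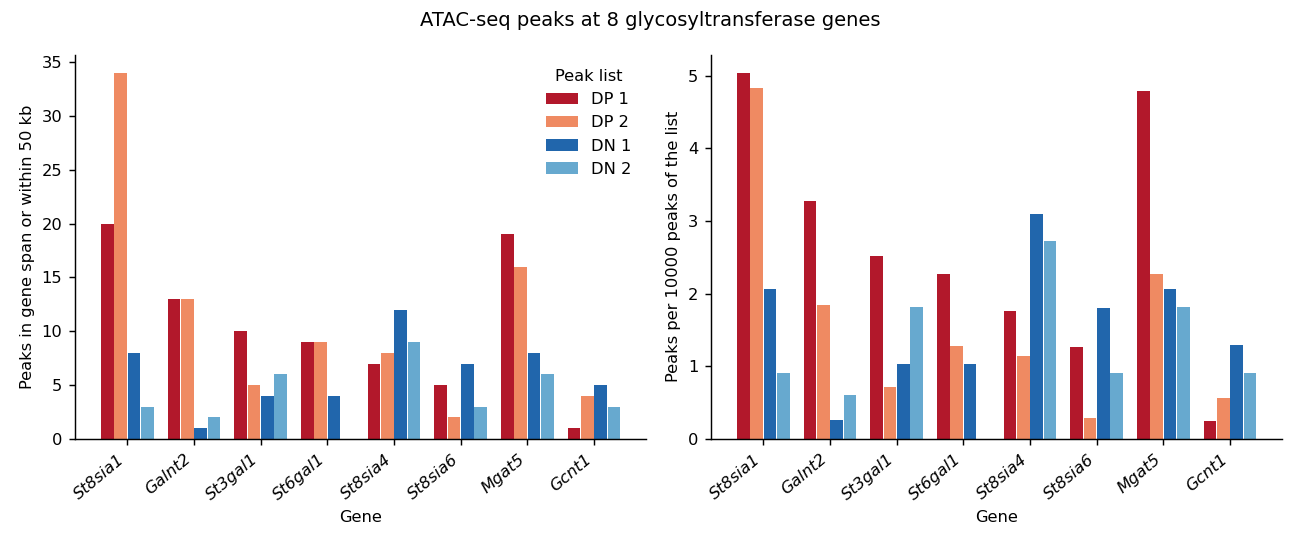
Peaks at each gene in each list, as counts (left) and per 10000 peaks of the list (right), with bars for DP 1, DP 2, DN 1 and DN 2 in that order. St8sia1 has 20 and 34 peaks in the DP lists and 8 and 3 in the DN lists, and St8sia4 has 7 and 8 against 12 and 9.

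St8sia1 encodes GD3 synthase, which adds a sialic acid to the ganglioside GM3. Its span is on chromosome 6, 142821541 to 142989528, on the minus strand. It held 20 and 34 peaks in DP 1 and DP 2, against 8 and 3 in DN 1 and DN 2 (27 ± 9.90 against 5.5 ± 3.54, SD, n = 2 each). Per 10000 peaks this was 5.04 and 4.83, against 2.06 and 0.906, so the DP lists lay close together and the groups did not overlap. Of its 10 DP-only regions, 7 lay inside the span, and 6 of those formed a row 6.20 to 53.6 kb downstream of the listed start. The row ran from 142910651 to 142958500, with members at 142910651 to 142911100, 142915301 to 142916050, 142941651 to 142942400, 142947101 to 142947500, 142953851 to 142954350 and 142958001 to 142958500. Another, at 142977851 to 142978400, lay 13.7 kb upstream of that start and still inside the span. Ranks order the peaks of a list by the authors' p-value, where a low percentage is a strong peak. In DP 1 the row ranked at 33.8 to 46.2%, except for 142947101 to 142947500, at 85.4%. In DP 2 the row ranked at 18.3 to 80.8%.

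The strongest peaks of the St8sia1 window stood elsewhere. A shared region inside the gene (142917251 to 142918250), 46.7 kb downstream of the start and within the row, had the smallest p-value the lists give, 1e-12, in both DP lists. In DN 1 and DN 2 it had 2.27e-06 and 2.80e-07, ranks of 4.71 and 2.65%. A DP-only region at 143035001 to 143035750 also had 1e-12 in DP 1 and DP 2. It lay inside the neighbouring gene C2cd5, 45.8 kb from the St8sia1 span. At the other end, a DP-only region at 142779251 to 142780350 lay 4086.5 bp from Cmas, which encodes the enzyme that activates sialic acid for all sialyltransferases. The last DP-only region, at 142814451 to 142815100, lay 6.77 kb from the St8sia1 span. Regions of both DP lists and DN 1 numbered 3 here. The DP-only minus DN-only count at St8sia1 was 21 without DP 1 and 13 without DP 2.

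St8sia4 encodes a polysialyltransferase, which builds long chains of sialic acid on a few carrier proteins. The gene spans 95587682 to 95667717 of chromosome 1, on the minus strand. It held 7 and 8 peaks in DP 1 and DP 2, against 12 and 9 in DN 1 and DN 2 (7.5 ± 0.71 against 10.5 ± 2.12, SD, n = 2 each). Per 10000 peaks the values were 1.76 and 1.14, against 3.09 and 2.72, so both DN lists lay above both DP lists on either scale. At the start, the region of 95667201 to 95668000 was held by all 4 lists at 1e-12. DP 1, DN 1 and DN 2 each gave that peak the same ends, 95667251 and 95668000. A second shared region lay 61.9 kb downstream inside the gene (95605301 to 95606000). It ranked at 37.1 and 53.0% in DP 1 and DP 2, with p-values of 7.72e-05 and 0.00039, and was among the strongest peaks of DN 1 and DN 2, at 1e-12. The lists differ in length and scale, so these ranks place the peak within each list and do not measure a change.

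At 3 further places near St8sia4 both DN lists and 1 DP list held a region. These were 95664151 to 95665350 (2.84 kb downstream of the start, with DP 2), 95655251 to 95656000 (12.0 kb downstream, with DP 1) and 95572751 to 95573600 (14.5 kb outside the span, with DP 1). None of the regions at St8sia4 was DP-only or DN-only. The difference of those counts was -2 without DN 1 or without DN 2, and 0 without DP 1 or without DP 2.

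St8sia6 encodes the family member that makes short sialic acid chains, mainly on O-glycans. It lies at 13651018 to 13794734 of chromosome 2, on the minus strand. It held 5 and 2 peaks in DP 1 and DP 2, against 7 and 3 in DN 1 and DN 2 (3.5 ± 2.12 against 5 ± 2.83, SD, n = 2 each), and the groups overlapped. None of its 8 regions was held by all 4 lists. The region at the start (13793351 to 13794000) was held by DP 1, DN 1 and DN 2, at ranks of 53.1, 56.3 and 77.9%. Both DN lists and 1 DP list also held 13718651 to 13719300 (DP 1) and 13672351 to 13673400 (DP 2). At the second of these places DP 2 had its widest peak of the window, 1000 bp, at a rank of 11.2%. A region 35.9 kb downstream of the start (13757251 to 13757950) was held by both DP lists, at ranks of 24.0 and 9.12%, and by DN 1 at 35.4%. The difference between DP-only and DN-only counts was -2 without DP 1 or without DN 2, and 1 without DP 2 or without DN 1, against 0 with all lists.

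St3gal1 encodes the enzyme that caps the simplest O-glycan, core 1, with sialic acid, and so removes the structure that peanut agglutinin reads. It lies at 67102875 to 67176946 of chromosome 15. It held 10 and 5 peaks in DP 1 and DP 2, against 4 and 6 in DN 1 and DN 2 (7.5 ± 3.54 against 5 ± 1.41, SD, n = 2 each), and the groups overlapped. Both shared regions lay toward the upper end of the span. The one at the end itself (67176301 to 67177300) had 1e-12 in DP 1 and DP 2, and 2.44e-05 and 2.76e-05 in DN 1 and DN 2, ranks of 15.7 and 11.9%. The other (67174401 to 67175100) ranked at 25.1 and 18.3% in the DP lists and at 82.3 and 77.9% in the DN lists, the rank of the largest p-value in each DN list. A DP-only region stood 4045.5 bp from that end (67172551 to 67173250), at ranks of 24.0 and 13.9%. The second DP-only region lay just below the span (67101201 to 67101750), 1399.5 bp from it. A region inside this lower end (67103201 to 67104250) was held by DP 1, DN 1 and DN 2. At St3gal1 the difference between DP-only and DN-only counts was 2 with all lists, 1 without DP 1, 5 without DP 2, 0 without DN 1 and 1 without DN 2.

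St6gal1 encodes the enzyme that adds sialic acid to N-glycans and makes the ligand of the B cell lectin CD22. The gene spans 23224729 to 23360350 of chromosome 16, on the plus strand, with no other protein-coding gene within 50 kb. It held 9 peaks in DP 1 and 9 in DP 2, against 4 in DN 1 and 0 in DN 2 (9 ± 0 against 2 ± 2.83, SD, n = 2 each), and the groups did not overlap. Of the 4 DN 1 peaks, 3 were tied at the largest p-value of their list. All 5 DP-only regions lay inside the span. The first (23225751 to 23226350) covered start 2 as a merged region, at ranks of 85.4 and 21.9% in DP 1 and DP 2. Only the DP 2 peak ran over the start itself. The DP 1 peak, 23226051 to 23226350, began just downstream of it and was tied at the largest p-value of DP 1. Another pair, 23279651 to 23280400 and 23286351 to 23286950, lay 10.4 and 3.82 kb upstream of start 3, and the others (23325201 to 23325750 and 23350601 to 23351350) lay 35.0 and 60.5 kb downstream of it. The window held no region that all 4 lists shared. Without DP 2 the difference between DP-only and DN-only counts was 8 in place of 5, and it was 3 in the better-ranked 50% of each list.

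Galnt2 encodes a GalNAc transferase that starts O-glycans of the mucin type. Its span is on chromosome 8, 124231394 to 124345722. It held 13 peaks in DP 1 and 13 in DP 2, against 1 in DN 1 and 2 in DN 2 (13 ± 0 against 1.5 ± 0.71, SD, n = 2 each). Per 10000 peaks this was 3.27 and 1.85, against 0.258 and 0.604, and the groups did not overlap. Some of these peaks overlapped, and they fell in 9 and 10 regions in DP 1 and DP 2, against 1 and 2 in DN 1 and DN 2. Of its 7 DP-only regions 6 lay inside the span. The first of these (124231151 to 124231800) covered the lower end of the span, at ranks of 46.2 and 18.3%. The others were 124260151 to 124260900, 124273401 to 124274050, 124281851 to 124282650, 124306351 to 124306900 and 124313701 to 124314750. The 7th lay 40.9 kb below the span (124190251 to 124190750). No Galnt2 peak of any list reached 1e-12. The DN lists held 3 peaks in all, each in a different region, and 1 of those regions was also held by both DP lists (124317651 to 124318300, with DN 2). Leaving out any list gave 6 to 9 DP-only minus DN-only regions at Galnt2, and there were 3 in the better-ranked 50% of each list.

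Gcnt1 encodes the core 2 enzyme, which branches O-glycans and competes with St3gal1 for the same core 1 structure. Its span is on chromosome 19, 17326141 to 17372844, on the minus strand. It held 1 and 4 peaks in DP 1 and DP 2, against 5 and 3 in DN 1 and DN 2 (2.5 ± 2.12 against 4 ± 1.41, SD, n = 2 each), and the groups overlapped. Per 10000 peaks the values were 0.252 and 0.568, against 1.29 and 0.906, which do not overlap. Its single DP 1 peak belonged to a region that all 4 lists shared (17393651 to 17394300). The midpoint of that region lay 21.1 kb above the span and 67.5 bp below the neighbouring gene Rfk. The region itself covered the lower end of Rfk, at 17394043. Inside the Gcnt1 span DP 1 therefore held no peak. The region at start 2 (17356051 to 17356950) was held by DP 2, DN 1 and DN 2, at ranks of 53.0, 22.5 and 46.3%. Around start 3 DN 1 alone held a region (17339451 to 17339950). DP-only minus DN-only regions were 0 with all lists, 1 without DP 1, -1 without DP 2, 0 without DN 1 and -2 without DN 2, so Gcnt1 kept no direction.

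Mgat5 encodes the enzyme that opens a further branch on N-glycans, the branch best known for binding galectins. Its span is the longest of the 8, on chromosome 1, 127204919 to 127488334, on the plus strand. It held 19 and 16 peaks in DP 1 and DP 2, against 8 and 6 in DN 1 and DN 2 (17.5 ± 2.12 against 7 ± 1.41, SD, n = 2 each), and the groups did not overlap. Per 10000 peaks the values were 4.78 and 2.27, against 2.06 and 1.81, with DP 2 close to DN 1. The start (127204601 to 127205550) was shared by all 4 lists, at ranks of 15.3 and 7.58% in DP 1 and DP 2, against 12.0 and 10.3% in DN 1 and DN 2. Of the 5 DP-only regions, 3 stood together 97.8 to 104 kb downstream of it, at 127302501 to 127303150, 127305551 to 127306050 and 127308201 to 127308950. The first of the 3 was the best ranked, at 17.8 and 7.58%. The others lay 28.3 kb (127232901 to 127233700) and 255 kb downstream (127458951 to 127460050). Shared regions also stood at 127322301 to 127322900 and 127443401 to 127444000, so of the 3 shared regions 2 were distal. The DP-only minus DN-only count was 9 without DP 1, 8 without DP 2 and 3 without DN 2, in place of 5.

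The DP-only regions of the 8 genes were mostly inside the genes, as were those of the other classes. Of the 29, 24 lay in the span of the gene itself, or 82.8%, while the spans made up 56.7% of the windows. Of the shared regions 9 of 10 lay in the span, as did 7 of the 8 held by both DN lists and 1 DP list and 38 of the 54 held by a single list. Over the genome 56.5% of the 8006 DP-only regions lay in the span of some protein-coding gene. That share is not like for like, since only 7116 of the 8006 lay within 50 kb of such a gene. The 24 were not divided into exons and introns here. Of the 29, 1 covered a listed start, which Galnt2 and St3gal1 lack, and 1 lay within 1000 bp of an end of a span, while 3 of the 10 shared regions covered a start. Their median width was 650 bp, against 600 bp for all DP-only regions, and that of the shared regions 750 bp, against 850 bp. The median rank of the DP-only regions was 40.96% in DP 1 and 25.8% in DP 2, the same as over the genome. For 27 of the 29 the 8 genes were also the nearest protein-coding genes, the exceptions being those at Cmas and C2cd5. Values were similar on either side of the limit of 50 kb. Between 40 and 50 kb from a span lay 7 regions, of which 3 were DP-only, and between 50 and 60 kb lay 5, of which 3 were DP-only, at Galnt2, St3gal1 and St6gal1.

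**Figure D4:**
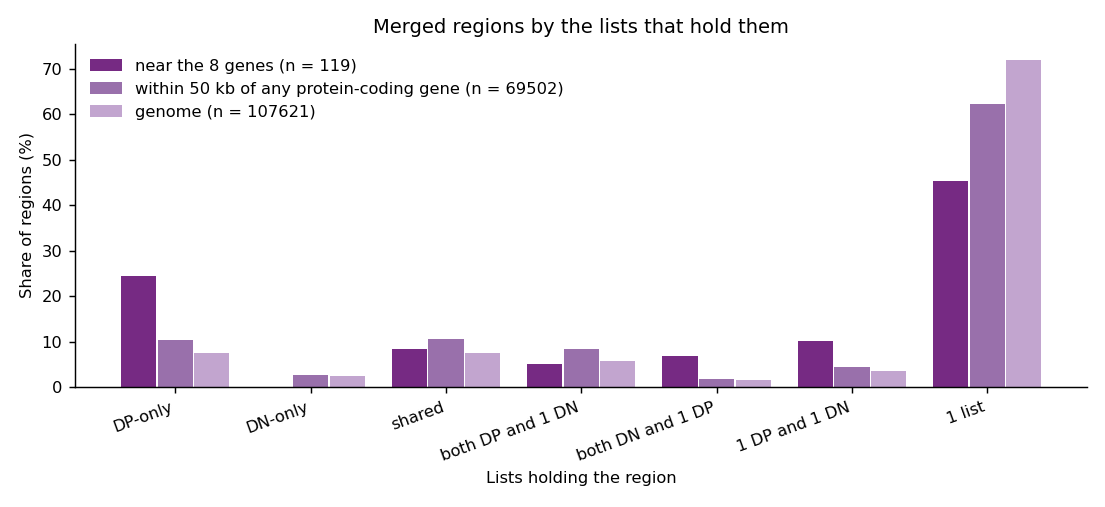
Share of regions in percent by the lists that hold them, near the 8 genes, within 50 kb of any protein-coding gene, and in the genome. DP-only regions make up 24.4% near the 8 genes, which were chosen with this in view, 10.2% near genes in general and 7.44% in the genome.

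The other genes of the pathway were taken from 6 lists with 80 genes beside the 8, all of which the gene table holds. More DP-only than DN-only regions were found at 44 of the 80, or 55.0%, and more DN-only at 7, or 8.75%, against 43.0% and 7.96% of all protein-coding genes. The median number of DP-only regions was 1 over the 80 and 0 over all genes. Windows of neighbouring genes overlap, so the genes are not independent. The window of Cmas, counted among the 80, also takes in 2 of the DP-only regions of St8sia1, which are its only DP-only regions. When only regions nearest to the gene itself were counted, 29 of the 80 had more DP-only regions, or 36.2%, against 21.2% of all genes. With the spans alone there were 19, or 23.8%, against 14.5% of all genes. Without DP 2 there were 55, or 68.8%, against 57.8% of all genes. The windows of the 80 had a median of 127 kb, against 117 kb over all genes. Among the 15 other sialyltransferases 7 had more DP-only regions and 0 more DN-only, which is close to the share over all genes. St6galnac4, St6galnac5 and St6galnac6 led with a difference of 2 each. St6galnac4 held 6 and 7 peaks in DP 1 and DP 2, against 1 and 1 in DN 1 and DN 2. St6galnac6, also on chromosome 2, held 6 and 6 against 1 and 1, and whether these genes share regions was not checked. St3gal6 had 4 shared regions and 9 and 9 peaks against 6 and 7.

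Of 23 genes that start or extend O-glycans, 13 had more DP-only and 2 more DN-only regions. These are 56.5% and 8.70%, against 43.0% and 7.96% of all genes. Galnt4 led with 5 DP-only regions, followed by Galnt7 and Gcnt3 with 4 each and B3gnt3 with 3. Gcnt3, a relative of Gcnt1, had 5 and 4 peaks in DP 1 and DP 2 and none in DN 1 or DN 2. Of 17 genes that branch or extend N-glycans, 10 had more DP-only and 2 more DN-only regions, or 58.8% and 11.8%. Mgat4a, which opens another N-glycan branch, and Man2a2, a mannosidase that acts before branching, had 5 DP-only regions each, and B3gnt2 had 4. B4galt4, a galactosyltransferase, had the largest difference toward DN, with 3 DN-only regions and 3 and 5 peaks in DP 1 and DP 2, against 9 and 6 in DN 1 and DN 2.

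Of 7 fucosyltransferases 3 had more DP-only regions, led by the neighbours Fut1 and Fut2 with 4 each, and 1, Fut10, had 2 DN-only regions. The share with more DP-only regions, 42.9%, was that of all genes, 43.0%. Of 10 genes of sialic acid supply and removal, 7 had more DP-only and 2 more DN-only regions. Nans, which makes sialic acid, and the sialidases Neu1 and Neu3 had 5 DP-only regions each. At Neu3 there were 10 and 9 peaks in DP 1 and DP 2, against 1 and 0 in DN 1 and DN 2. Cmah, which converts sialic acid to its glycolyl form, had 3. Of 8 lectins and glycan carriers 4 had more DP-only regions. Lgals1, a galectin, had 6 with 9 and 12 peaks against 1 and 0, and Ptprc, which encodes the heavily glycosylated phosphatase CD45, had 5. Selplg and Spn, mucin-like carriers of O-glycans, had 2 each. The windows of Galnt4, Gcnt3, Fut1, Neu1 and Lgals1 were 103 to 108 kb long. With 50 kb on either side, they were almost all flank. Regions counted at such short genes may lie nearer to other genes, and the named genes were not recounted by nearest gene.

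**Figure D5:**
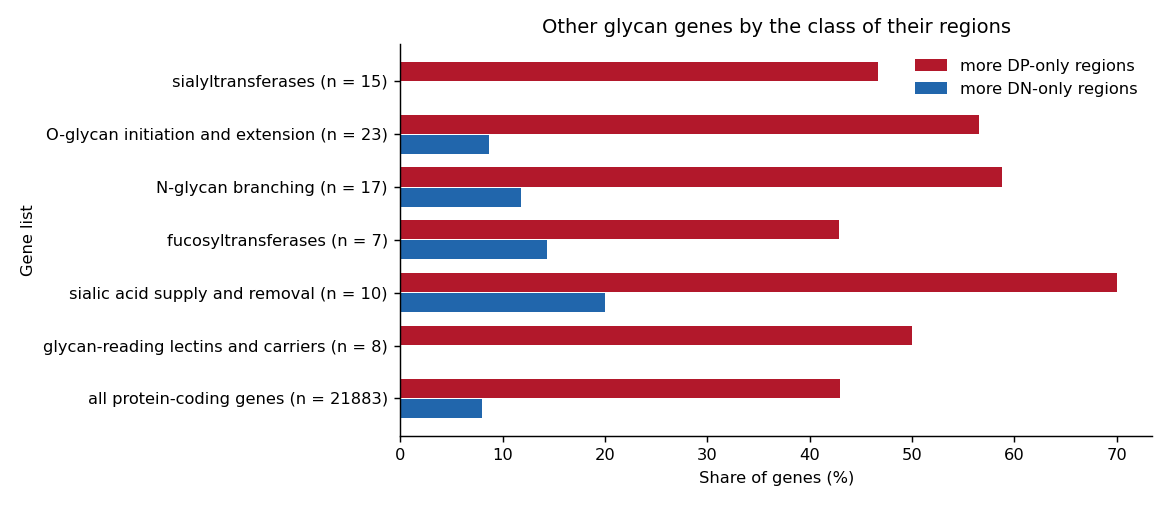
Share of genes in percent with more DP-only regions (red) or more DN-only regions (blue) in the 6 lists of other glycan genes and among all protein-coding genes. The share with more DP-only regions ranges from 42.9 to 70.0% over the lists, against 43.0% of all genes.

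The genes whose peak counts most resembled those of St8sia1 over the 4 lists were Itpr2, Maml3 and Ccnd3, by the Euclidean distance between log2 values of peaks per 10000 peaks plus 1. The distances were 0.34, 0.40 and 0.56. Itpr2, an inositol trisphosphate receptor, held 19 and 28 peaks in DP 1 and DP 2, against 8 and 2 in DN 1 and DN 2, with 7 DP-only regions in a window of 494 kb. Maml3, a Notch coactivator, held 23 and 27 against 8 and 2, with 8 DP-only regions. Ccnd3, a D-type cyclin, held 19 and 22 against 8 and 2, with 6. The window of St8sia1 was 268 kb, and that of Ccnd3 195 kb.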

How the data were processed

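The data are ATAC-seq peak lists of 4 samples, DP 1, DP 2, DN 1 and DN 2. Per the submitters' processing notes Bowtie2, Picard and the mm10 build were used, with roles and versions not given in the sources used here. The names of the deposited lists give PeakDEck as the peak caller, and each deposited peak carries the authors' p-value. Peaks had no read counts or depth. From these, regions were joined across lists at 1 bp of overlap, and genes came from a RefSeq table of 21883 protein-coding genes on the mm10 assembly. That table gives no strand or exons, so strand and starts were taken from RefSeq promoters (GRCm38.p6), which were used for 6 of the 8 genes. A genome sequence was not used here. Ranks order the peaks of a list by p-value, with ties at their mean rank, in percent of the list. The analysis ran in Python 3.11.15 with pandas 2.3.3 and numpy 2.4.6, and the region classes were tested on simulated data. The lists split into pairs in 3 ways, so an exact permutation test could not go below p = 0.333 and none was run. Every one of the 8 genes is named, other glycan genes by the size of their difference, and the 3 genes most like St8sia1. Regions are named by position where DP-only, DN-only or shared, and others named were chosen after their values were seen. The genes, their pathway lists and the markers were chosen with earlier results of these data known. Alternatives changed the strength limit, list length, joining rule, window and lists used.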

Additional observations from a re-analysis of the deposited data

How the results depend on the processing

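The counts near the 8 genes were recomputed with the better-ranked 50% of each list, lists cut to the shortest length, other joining rules, other windows, the nearest gene only, and each list left out. DP-only regions, 29 as reported, numbered 21 to 34 under the other settings and 30 to 51 with a list left out. DN-only regions, 0 as reported, numbered 2 in the better-ranked 50%, 1 with lists of the shortest length, 2 within 100 kb and 3 to 11 with a list left out. Shared regions, 10 as reported, numbered 9 to 13, and 11 to 15 with a list left out. The DP minus DN difference of 5.90 peaks per 10000 was 1.79 to 10.01 with a list left out. With the replicate number as a replicate block it was 8.53 for number 1 and 3.27 for number 2. The labels name no animal or batch that same-numbered samples share, so they are not treated as paired. Across 20485 genes, which are not independent, the deviations of DP and DN between number 1 and number 2 correlated at r = 0.281. Of the 80 other glycan genes, 44 had more DP-only regions, or 55.0% against 43.0% of all genes. With spans alone there were 19 (23.8% against 14.5%), by nearest gene 29 (36.2% against 21.2%). With a list left out there were 38, without DN 2 (47.5% against 39.1%), to 64, without DP 1 (80.0% against 73.7%). For the single genes, 71 values stayed within 1.5 times, 25 moved and 0 turned to the opposite direction. St8sia4, St8sia6 and Gcnt1 had a difference of 0 as reported, so by this rule they could not turn and stayed only where they kept 0. With a list left out, the differences at St8sia6 and Gcnt1 each ranged from -2 to 1.

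Depth is unknown, so absence from a list does not show closed DNA, and 29.1 to 44.2% of the peaks of a list share its largest p-value. Merged regions can hold separate peaks. Leaving out any list raised the genome-wide numbers of DP-only, DN-only and shared regions.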
